A study of Mus musculus with 8 samples.

Results

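The Hox cluster genes are the 39 mouse genes whose symbols are Hoxa, Hoxb, Hoxc or Hoxd followed by a number. They were taken by symbol from the protein-coding genes of the RefSeq annotation of GRCm38, out of 21777 coding genes placed on chromosomes. They lie in 4 clusters: HoxA with 11 genes (chr6:52155367-52260880), HoxB with 10 (chr11:96194316-96368254), HoxC with 9 (chr15:102921131-103036856) and HoxD with 9 (chr2:74668225-74765142). No other coding gene of the annotation lies inside any of the 4 spans, which are 96.9 to 174 kb long.

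Hox genes code for homeodomain transcription factors that give cells along the head-to-tail axis of the embryo their regional identity. Within each cluster the genes stand in the order in which they are used along that axis, so low numbers act towards the head (anterior) and high numbers towards the tail (posterior). In the gut tube, Hox genes are known for patterning the mesenchyme and for dividing foregut, midgut and hindgut. The silent state of these clusters is the classic target of the Polycomb repressive complexes, and Trithorax proteins maintain the active state. H3K27ac, an acetylated lysine of histone H3, marks active promoters and enhancers, and H3K9ac, an acetylated lysine nearer the histone's end, marks mainly active promoters.

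The 8 samples were crypt cells of the small intestine, labelled as epithelial cells, from male C57BL/6J mice aged 9 weeks. Crypts were shaken off in EDTA and digested to single cells with trypsin. CUT&Tag was run for H3K27ac or H3K9ac. In this assay a transposase tethered through an antibody cuts and tags DNA beside the chosen histone mark, and the tagged fragments are sequenced. For each mark, the 4 groups were Fed_(-Tetra), Fast_(-Tetra), Fed_(+Tetra) and Fast_(+Tetra), that is mice fed or fasted for 24 h, without tetracycline or after 21 days of this antibiotic. Each group was 1 sample with 2 deposited peak lists, numbered 1 and 2, so each mark had 8 lists and the series had 16. Lists are named here by feeding state, number and tetracycline, as in Fed 1 without tetracycline. Whether the 2 lists of a group came from different mice is not stated, so spread between lists may be technical and p-values over lists may then be too small. The labels give no number of mice, and a peak from few cells cannot be told apart from a weak mark in many cells.

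The lists held 32392 to 68545 H3K27ac peaks and 17249 to 99050 H3K9ac peaks on the chromosomes used, and the read depth behind them is unknown. Both Fast 1 lists of H3K9ac stood apart, with 99050 and 97764 peaks against at most 54158 in the other 6. Of their peaks, 17.2% without and 20.3% with tetracycline were exactly 200 bp wide, as were 31.2% in Fast 2 with tetracycline and 11.8% in the Fast 1 H3K27ac list without tetracycline. The labelled cell type was checked against markers. Of 10 epithelial genes, 8 had an H3K27ac peak at a gene end in all 8 lists, Epcam, Cdh1 and Vil1 among them. Over all coding genes this share was 33.8%. None lacked one throughout, but Olfm4 had it in 5 lists (1 Fed and 4 Fast) and Lgr5 in 1 Fast list. For H3K9ac, 6 of the 10 had a peak in all 8 lists, against 21.2% of coding genes. Olfm4 had H3K9ac in 6 lists (2 Fed and 4 Fast) and Lgr5 in 2 Fast lists. Of 10 mesenchymal genes, 9 had no H3K27ac peak at a gene end in any list, the exception being Vim with 5 lists. For H3K9ac, 6 mesenchymal genes had a peak in at least 1 list, against 75.2% of coding genes, and Col1a2, Pdgfra, Dcn and Lum had none. No H3K27ac peak was found at any of 4 endothelial genes or at 5 of 6 enteric neuron and glia genes (Ret had 6 lists). Of 5 immune genes, 2 had none, near the 39.1% of coding genes with no H3K27ac in any list. Per list, 0 or 1 mesenchymal genes had H3K27ac in either feeding state, and 0 to 2 had H3K9ac in Fed and 1 to 3 in Fast lists. Among immune genes, Ptprc had H3K27ac in all 4 Fast lists and no Fed list, as did 0.0964% of coding genes. Itgam had it in all 4 Fast and 2 Fed lists, and Cd3e in 2 Fast and all 4 Fed lists. The part of these cells in the Hox results was not tested. For H3K9ac, 3 of 4 endothelial, 1 of 6 enteric and 1 of 5 immune genes had no peak in any list, against 24.8% of coding genes.

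Promoter sequences are shown for the members that the results turn on. The RefSeq table of GRCm38.p6 promoters, which runs from 250 bases before to 50 after a start site, held 24 promoters of 22 Hox genes. CG dinucleotides (CpG), whose density separates promoters that are usually open from those that are not, are in capitals and the rest in lower case, 5′ to 3′ on the gene's strand. Hoxa9 (chr6:52227321-52227620, minus strand), Hoxb8 (chr11:96281655-96281954, plus strand) and Hoxd4 (chr2:74721728-74722027, plus strand) were among the genes with most lists in their clusters. Hoxa2 (chr6:52164782-52165081, minus strand) is the first gene with no peak in any list. Hoxa13 (chr6:52260831-52261130, minus strand) has the most CpG among Hox promoters, and Cdx2 (chr5:147307200-147307499, minus strand), the intestinal homeobox gene outside the clusters, was marked in every list. The last pair was chosen after the values were seen.
Hoxa9: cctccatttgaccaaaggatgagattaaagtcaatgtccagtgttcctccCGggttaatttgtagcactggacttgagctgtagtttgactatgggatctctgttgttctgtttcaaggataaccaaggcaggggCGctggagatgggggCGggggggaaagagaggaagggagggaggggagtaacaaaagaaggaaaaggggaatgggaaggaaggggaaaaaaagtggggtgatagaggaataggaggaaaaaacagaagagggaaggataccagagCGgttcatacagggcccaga
Hoxb8: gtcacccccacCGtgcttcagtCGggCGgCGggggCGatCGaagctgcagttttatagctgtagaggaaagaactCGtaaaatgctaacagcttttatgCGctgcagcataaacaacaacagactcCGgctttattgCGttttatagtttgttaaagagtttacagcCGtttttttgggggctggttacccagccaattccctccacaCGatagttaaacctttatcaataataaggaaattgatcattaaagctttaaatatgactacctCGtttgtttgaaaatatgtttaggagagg
Hoxd4: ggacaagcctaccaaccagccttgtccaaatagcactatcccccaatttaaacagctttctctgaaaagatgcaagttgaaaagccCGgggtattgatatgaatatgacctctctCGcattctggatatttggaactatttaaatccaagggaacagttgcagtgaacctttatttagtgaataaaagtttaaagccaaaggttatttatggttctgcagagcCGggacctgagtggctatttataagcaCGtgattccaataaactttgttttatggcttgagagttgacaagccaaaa
Hoxa2: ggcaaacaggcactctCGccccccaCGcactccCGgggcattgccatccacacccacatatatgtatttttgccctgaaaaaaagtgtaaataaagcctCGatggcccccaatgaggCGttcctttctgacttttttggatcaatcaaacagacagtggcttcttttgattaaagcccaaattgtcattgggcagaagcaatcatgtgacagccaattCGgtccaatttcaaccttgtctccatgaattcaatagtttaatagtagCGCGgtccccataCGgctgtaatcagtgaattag
Hoxa13: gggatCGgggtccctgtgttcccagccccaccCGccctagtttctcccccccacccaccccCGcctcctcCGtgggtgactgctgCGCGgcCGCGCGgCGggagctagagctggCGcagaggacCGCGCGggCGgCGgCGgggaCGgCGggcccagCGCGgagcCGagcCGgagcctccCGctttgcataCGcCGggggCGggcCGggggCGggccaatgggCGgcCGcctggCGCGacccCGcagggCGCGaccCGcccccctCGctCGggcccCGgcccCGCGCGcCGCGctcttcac
Cdx2: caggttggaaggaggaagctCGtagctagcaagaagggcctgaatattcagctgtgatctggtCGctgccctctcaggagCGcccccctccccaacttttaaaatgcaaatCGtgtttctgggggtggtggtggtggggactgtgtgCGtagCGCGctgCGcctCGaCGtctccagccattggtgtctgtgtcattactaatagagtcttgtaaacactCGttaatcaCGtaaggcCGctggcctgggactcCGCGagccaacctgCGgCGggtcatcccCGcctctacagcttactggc
The Hoxa13 promoter holds 45 CpG at 81.0% GC and the Cdx2 promoter 18 CpG at 57.3% GC. Hoxa9 and Hoxd4 hold 4 CpG each, Hoxa2 holds 9 and Hoxb8 holds 13. The Cdx2 window was overlapped by a peak in 8 of 8 H3K27ac lists and 8 of 8 H3K9ac lists. Each of the 5 Hox windows printed was overlapped by none for either mark. So the most CpG-dense Hox promoter was without a peak and a less dense promoter of a homeobox gene had one throughout.

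A gene was counted as marked in a list when at least 1 base of a peak lay within 1 kb of either end of the gene. For H3K27ac, 37 of the 39 Hox genes were marked in no list, against 39.1% of all coding genes. The other two were each marked in 1 list, so 5.13% of Hox genes had H3K27ac in at least 1 list against 60.9% of coding genes, and in exactly 1 list against 6.56%. Hoxa4, an anterior gene, was marked in Fast 2 without tetracycline and in none of the other 7 lists. Hoxd4, its paralog in HoxD, was marked in Fast 1 without tetracycline and in none of the other 7. No Hox gene was marked in all 8 H3K27ac lists, against 33.8% of coding genes, and none in at least 2 lists, against 54.4%. Per list, 43.2% to 51.0% of coding genes were marked, and 0 or 1 Hox genes.

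For H3K9ac, 23 of the 39 Hox genes were marked in at least 1 list, against 75.2% of coding genes, and 16 in none, against 24.8%. Most of the 23 rested on a single list: 19 genes were marked in exactly 1 list, against 14.5% of coding genes. In at least 2 lists there were 4 Hox genes, against 60.6%, and in all 8 there were none, against 21.2%. In the 8 lists the number of marked Hox genes was 0 (Fed 1), 4 (Fed 2), 6 (Fast 1) and 5 (Fast 2) without tetracycline, and 1 (Fed 1), 2 (Fed 2), 8 (Fast 1) and 2 (Fast 2) with it. That is 0% to 20.5% of Hox genes, while 41.4% to 53.5% of coding genes were marked in the same lists. Fed and Fast lists overlapped, and Fast 1 with tetracycline was the highest of all. Without both Fast 1 lists, the mean per list was 2.33 Hox genes instead of 3.5, and 12 genes rather than 23 were marked at least once. The mean was 1.25 with the upper 0.5 of each list by score and 0.625 with equally many top peaks from each list.

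**Figure D1:**
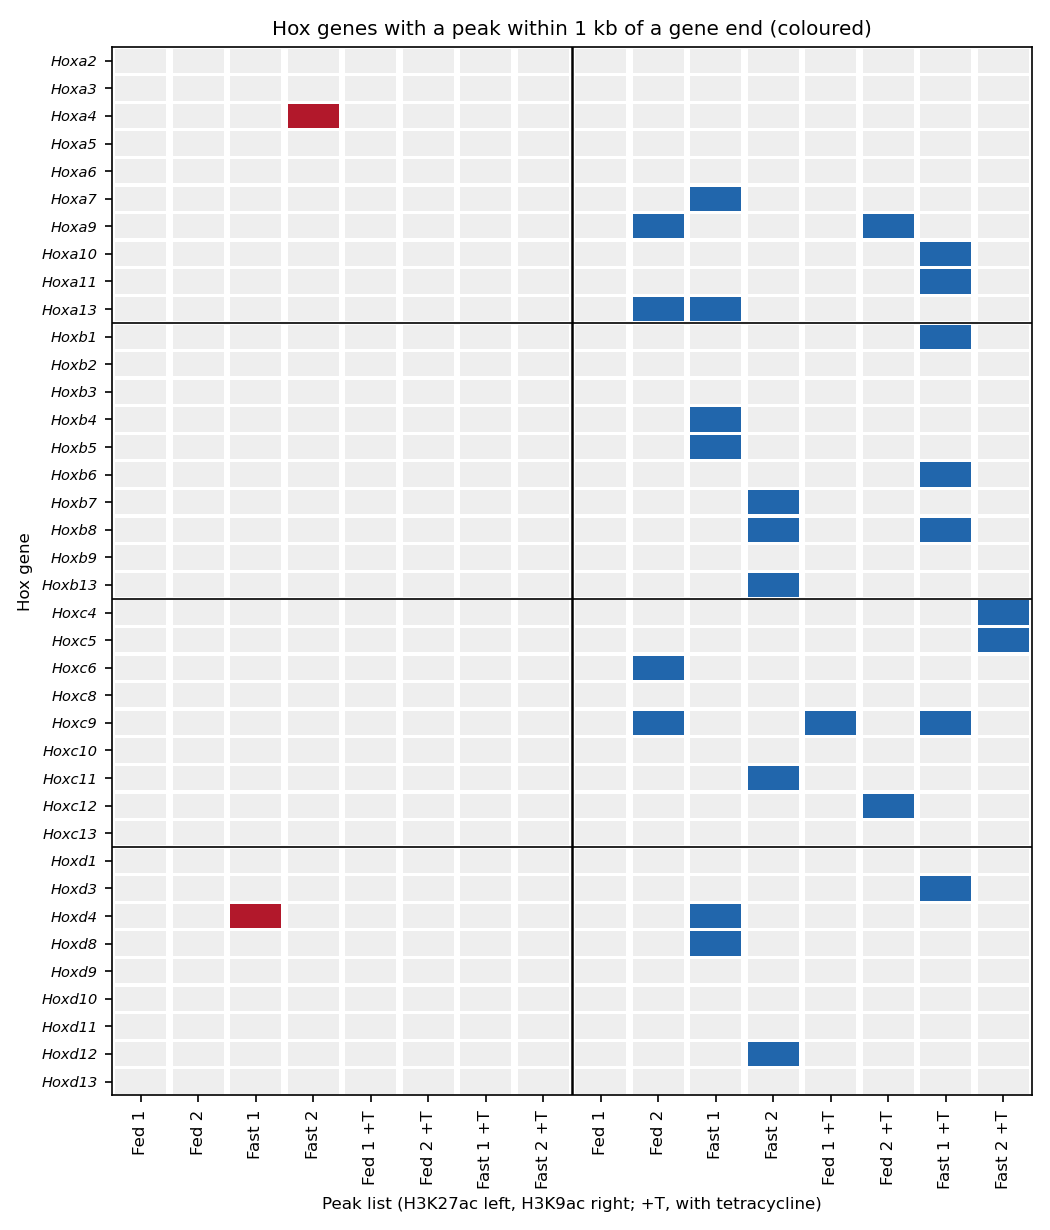
Each row is a Hox gene (1 of the 39 is not drawn) and each column 1 of the 16 peak lists; a filled cell means a peak within 1 kb of a gene end. The H3K27ac panel holds 2 filled cells (Hoxa4 and Hoxd4) and the filled cells of the H3K9ac panel are spread over 7 of its 8 lists, with no row filled in more than 3.

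The olfactory receptor genes, a large family of sensory genes, gave a reference for sparse peaks, though 2 of them had H3K27ac in all 8 lists. Of these 1109 genes, 0.361% to 2.07% were marked by H3K27ac per list and 0.451% to 7.94% by H3K9ac. In H3K27ac, 95.6% of olfactory receptor genes and 94.9% of Hox genes were marked in no list. In H3K9ac these shares were 75.8% and 41.03%, so the Hox share lay between that of olfactory receptor genes and the 24.8% of all coding genes. The Fast 1 H3K9ac lists were the highest for both sets: they held 83 and 88 marked olfactory receptor genes, against 5 to 39 in the other 6 lists. The part of list size in the Hox counts was not tested.

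**Figure D2:**
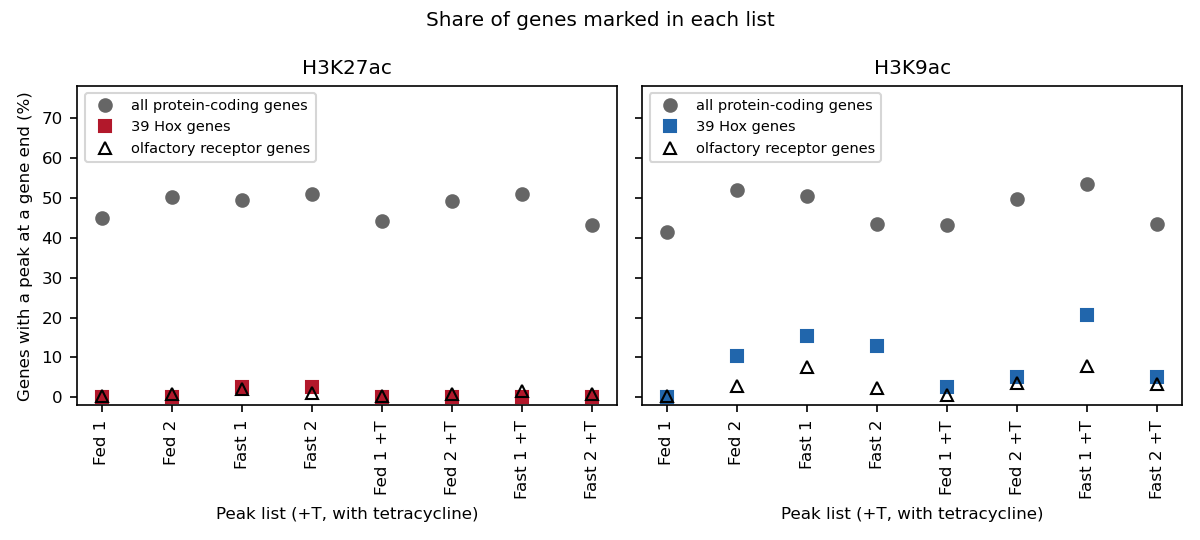
Percent of Hox genes, of all coding genes and of olfactory receptor genes with a peak within 1 kb of a gene end, 1 point per list and set, for H3K27ac and H3K9ac. Hox genes lie at 0% to 2.56% for H3K27ac and at 0% to 20.5% for H3K9ac, below the coding genes of the same list throughout.

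The 4 genes with H3K9ac in at least 2 lists were Hoxc9, Hoxa9, Hoxa13 and Hoxb8. Hoxc9, a posterior gene of the trunk, was marked in 3 lists: Fed 2 without tetracycline, Fed 1 with it and Fast 1 with it. The other 5 lists had no peak there. The peaks (chr15:102975754-102976083, chr15:102975709-102976170 and chr15:102975277-102976051) overlapped each other 862 to 981 bp outside the gene. By the authors' score they stood at percentiles 50.7, 25.7 and 4.76 of their lists, where 100 would be the best-scored peak. Fast 1 with tetracycline had a further peak of 200 bp at the other end of Hoxc9 (chr15:102985274-102985473).
Hoxa9, known for its part in blood progenitors and limb patterning, was marked in Fed 2 without and Fed 2 with tetracycline and in none of the other 6 lists. Its peaks (chr6:52221378-52222229 and chr6:52222214-52222625) ranked at percentiles 59.4 and 51.5. They lie below the lower coordinate of this minus-strand gene, so at its 3′ end and not at the promoter printed above. The first of them also overlapped peaks of Fed 2 with and Fast 1 without tetracycline that ended just over 1 kb from the gene.
Hoxa13, the last gene of its cluster and a regulator of hindgut and limb ends, was marked in Fed 2 and Fast 1 without tetracycline and in none of the other 6. Both peaks lay over the gene (chr6:52259076-52259471 and chr6:52259351-52260421), at percentiles 20.01 and 40.96, and neither reached the promoter printed above.
Hoxb8, known from hematopoietic cells and microglia, was marked in Fast 2 without and Fast 1 with tetracycline and in none of the other 6. Its peaks stood at opposite ends, the first over the gene and also within 1 kb of Hoxb7 (chr11:96285085-96285330, percentile 57.0), the second 241 bp outside it (chr11:96278795-96279160, percentile 91.2). The latter was the best-ranked H3K9ac peak in any Hox cluster, and no other list had a peak overlapping it.

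The H3K27ac peak of Hoxa4 (chr6:52188845-52189889) was 1045 bp wide, ranked at percentile 10.6 of its list and lay over Hoxa3, whose annotation spans it. Of Hoxa4 (chr6:52189682-52191703) it covered the lower end only. The promoter table does not hold Hoxa4, but all HoxA genes in it are on the minus strand, where the lower end is the 3′ end. No H3K9ac peak overlapped this H3K27ac peak in any list. The Hoxd4 peak (chr2:74721000-74721487) was 488 bp wide and ranked at percentile 14.1. It ended 491 bp from Hoxd4, over the long annotated span of Hoxd3. At Hoxd4 both marks met: an H3K9ac peak of Fast 1 without tetracycline (chr2:74721121-74721532, percentile 42.5) overlapped it, and it was the list of the same feeding state, tetracycline state and number. In HoxD no gene had H3K9ac in more than 1 list. By rank the first of its 4 marked genes was Hoxd8, marked in Fast 1 without tetracycline by a peak over the gene (chr2:74704448-74705074, percentile 64.8) and unmarked in the other 7.

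The remaining 18 genes with H3K9ac were marked in 1 list each. In Fast 1 with tetracycline these included Hoxa10, Hoxa11, Hoxb1, Hoxb6 and Hoxd3. In Fast 1 without tetracycline they were Hoxa7, Hoxb4, Hoxb5 and Hoxd4. Fast 2 without tetracycline held Hoxb7, Hoxb13, Hoxc11 and Hoxd12, and Fast 2 with tetracycline held Hoxc4 and Hoxc5 through 1 shared peak (chr15:103018047-103018395, percentile 80.6). From the Fed lists came Hoxc6 (Fed 2 without tetracycline) and Hoxc12 (Fed 2 with tetracycline). Among these are a retinoic acid target of the hindbrain (Hoxb1), genes of the reproductive tract (Hoxa10 and Hoxa11) and a gene of the hindgut and prostate (Hoxb13).
No peak of either mark stood at a gene end of 15 Hox genes in any of the 16 lists, against 22% of coding genes. These were Hoxa2, Hoxa3, Hoxa5, Hoxa6, Hoxb2, Hoxb3, Hoxb9, Hoxc8, Hoxc10, Hoxc13, Hoxd1, Hoxd9, Hoxd10, Hoxd11 and Hoxd13. They include Hoxa2, which sets the identity of the second branchial arch, Hoxa5, known for lung and gut mesenchyme, Hoxc13, a hair follicle gene, and Hoxd13, a gene of digits and hindgut.

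Position along the clusters was read in 3 classes: anterior (numbers 1 to 4, 12 genes), central (5 to 8, 11 genes) and posterior (9 to 13, 16 genes). Each gene in each list is 1 gene-list pair, of which a mark has 312. For H3K9ac, 6 of 96 anterior pairs (6.25%), 9 of 88 central pairs (10.2%) and 13 of 128 posterior pairs (10.2%) were marked. For H3K27ac, 2 of 96 anterior pairs were marked and none elsewhere, 0.641% of all pairs. By cluster, H3K9ac pairs made up 9.09% in HoxA, 10% in HoxB, 11.1% in HoxC and 5.56% in HoxD. Every class and cluster thus held both marked and unmarked genes for H3K9ac, and the pairs of 1 list are not independent of each other.

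The clusters as wholes were then read, gene ends or not. They held 11 H3K27ac peaks from 5 lists and 79 H3K9ac peaks from all 8. For H3K27ac there were none in Fed 1 without, Fed 2 with and Fast 2 with tetracycline. There was 1 each in Fed 2 without and Fed 1 with tetracycline, and 3 each in the other 3 Fast lists. For H3K9ac there were 1 (Fed 1), 9 (Fed 2), 19 (Fast 1) and 7 (Fast 2) without tetracycline, and 5 (Fed 1), 8 (Fed 2), 24 (Fast 1) and 6 (Fast 2) with it. The Fast 1 lists held the most in both states, as they did over the genome.
These peaks seldom recurred. Of the H3K27ac peaks, 9 of 11 (81.8%) overlapped no H3K27ac peak of another list, against 15.6% of all H3K27ac peaks. For H3K9ac it was 66 of 79 (83.5%) against 57.6%. The shares over all peaks include peaks of every rank and width, and no comparison with peaks of like rank was made.
In rank most were low. The median width of the H3K27ac peaks, 411 bp, was below the medians of whole lists (574 to 1066 bp), and that of the H3K9ac peaks, 419 bp, lay within them (303 to 834 bp). All 11 H3K27ac peaks ranked below the median score of their lists, at percentiles 3.94 to 34.1. Of the H3K9ac peaks, 54 ranked below the median and 25 above it, with a median percentile of 33.1. At gene ends lay 2 H3K27ac and 28 H3K9ac peaks, and 9 and 51 lay away from them.

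**Figure D3:**
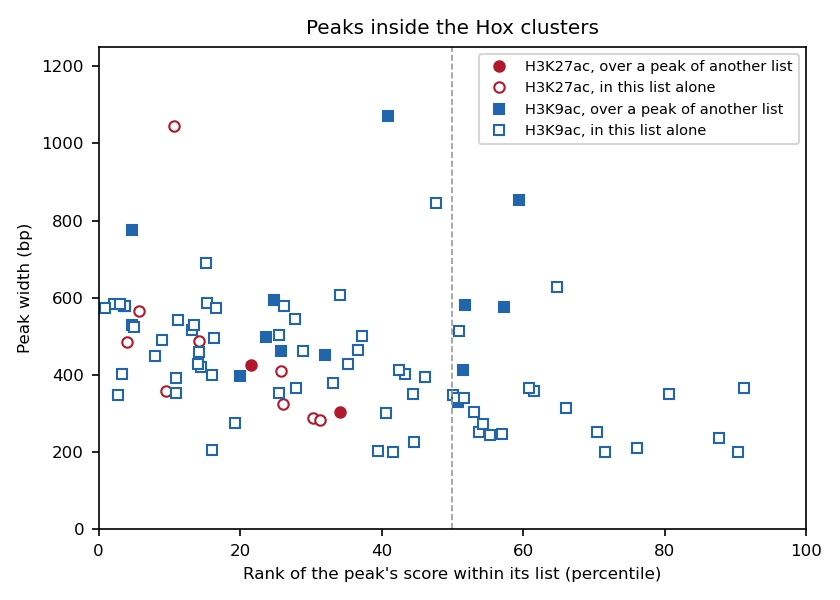
Every peak inside the 4 Hox clusters, by the percentile of its score within its list (horizontal, dashed line at the median) and its width in bp (vertical); filled points overlap a peak of the same mark in another list. The 11 H3K27ac peaks lie at percentiles up to 34.1 and the 79 H3K9ac peaks at percentiles up to 91.2, and 9 and 66 of them are open points.

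Lists coincided at few places, among them 1 beside a microRNA gene. MicroRNAs of the Hox clusters are known to repress Hox transcripts. The mature 5p sequences of the mir-10 and mir-196 genes are shown (RefSeq, GRCm38.p6, 5′ to 3′) with the seed, bases 2 to 8, in capitals. Among 5p arms, those of Mir10a (HoxB) and Mir10b (HoxD) share 1 seed, and those of Mir196a-1 (HoxB), Mir196a-2 (HoxC) and Mir196b (HoxA) share another. The 3p arms, not shown, do not share seeds.
miR-10a-5p: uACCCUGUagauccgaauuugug
miR-10b-5p: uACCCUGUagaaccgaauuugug
miR-196a-5p: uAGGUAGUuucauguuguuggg
miR-196b-5p: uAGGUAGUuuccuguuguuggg
Mir196a-1, between Hoxb9 and Hoxb13 (mature sequence at chr11:96265187-96265208, plus strand), was the only microRNA gene of the clusters with H3K27ac within 1 kb. Peaks were present in Fed 2 without (chr11:96265926-96266351, percentile 21.5) and Fast 1 with tetracycline (chr11:96265993-96266295, percentile 34.1) and in none of the other 6 lists. This was the only place in the 4 clusters with overlapping H3K27ac peaks of 2 lists. Mir196a-1 had H3K9ac in 2 lists as well. The other mir-196 genes, Mir196a-2 and Mir196b, and both mir-10 genes had H3K9ac in 1 list each and H3K27ac in none. Mir615 in HoxC had neither. So 5 of the 6 (83.3%) had H3K9ac in at least 1 list, against 47.0% of all microRNA genes.
The 3 H3K9ac peaks listed for Hoxc9 and the 3 below Hoxa9 (Fed 2 with, Fast 1 without and Fed 2 without tetracycline, from chr6:52221204-52221780 to chr6:52221378-52222229) were the most any place in the clusters reached. Of 31 noncoding genes and pseudogenes in the spans, 4 had H3K27ac and 16 had H3K9ac within 1 kb of an end in at least 1 list. These are 12.9% and 51.6%, against 26.9% and 47.7% of all 23721 genes of the same kinds on the chromosomes used. The 23721 include 9854 pseudogenes and the clusters hold 1, so the pooled shares are not alike in make-up. Among long noncoding RNA genes, 3 of 24 (12.5%) had H3K27ac against 38.2%, and 11 of 24 (45.8%) had H3K9ac against 60.8%. The 6 microRNA genes, given above, were above their background for H3K9ac. None of these differences was tested. Hotair in HoxC, a noncoding RNA known for a link to Polycomb, had H3K9ac in 2.

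The clusters lay in wider stretches with no peak common to all 8 lists. No region inside any cluster was covered in all 8 lists of either mark. The nearest such H3K27ac region lay 684 kb below and 215 kb above HoxA, 52.4 and 269 kb from HoxB, 249 and 202 kb from HoxC, and 71.5 and 60.1 kb from HoxD. For H3K9ac these distances were 684 and 453 kb, 128 and 421 kb, 249 and 202 kb, and 88.6 and 892 kb.
The 3 nearest coding genes on each side of each cluster were mixed. Around HoxA, Cbx3 and Tax1bp1 had both marks in all 8 lists, Hibadh had H3K27ac in 8 and H3K9ac in 7, and Skap2 in 7 and 5. Snx10 and Evx1, a homeobox gene beside the posterior end, had neither mark in any list. Around HoxB, Atp5g1, at 119 kb, had H3K27ac in 8 lists and H3K9ac in 7, Snx11 in 8 and 6, and Cbx1 in 7 and 8. Nearer to HoxB, Skap1 had H3K27ac in 2 lists and H3K9ac in 3, Ttll6 in 0 and 1, and Calcoco2 had neither. Around HoxC, Atp5g2, Atf7, Cbx5 and Hnrnpa1 had both marks in all 8 lists, Calcoco1 had H3K27ac in 6 and H3K9ac in 7, and Smug1 in 7 and 1. Around HoxD, Lnpk, Atp5g3 and Hnrnpa3 had both marks in all 8 lists, Mtx2 had H3K27ac in 8 and H3K9ac in 7, Gm50595 in 6 and 1, and the homeobox gene Evx2, at 6.71 kb, had neither.

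**Figure D4:**
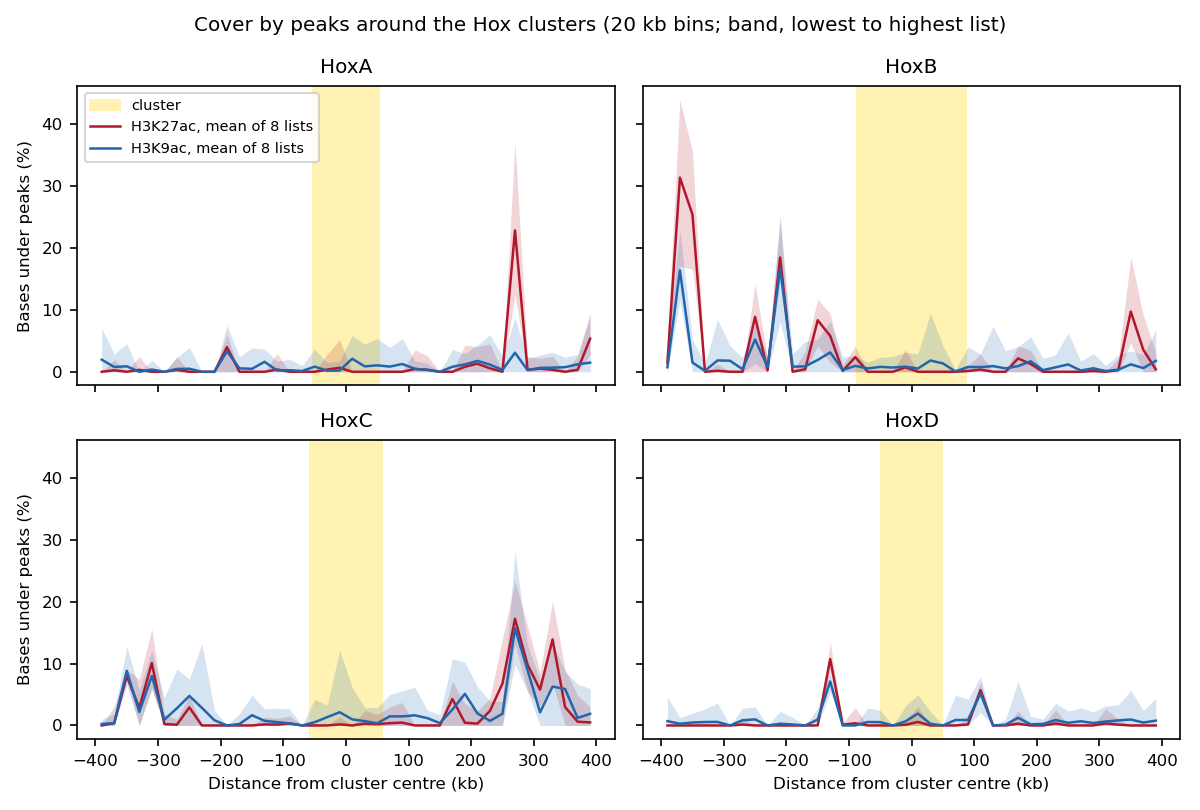
Percent of bases under peaks in steps of 20 kb, out to 400 kb on each side of each cluster's centre, as the mean over the 8 lists of a mark with a band from the lowest to the highest list; the cluster's extent is shaded in yellow. Cover inside the clusters averages 0.0819% to 0.191% for H3K27ac and 0.703% to 1.05% for H3K9ac, and the higher steps stand in the flanks, as below HoxB.

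In the 200 kb below HoxB, H3K27ac covered 4.47% of bases on average over lists (3.16% to 5.63%), against 0.0819% inside the cluster (0% to 0.410%), so the ranges did not overlap. Below HoxD it covered 1.12% (0.869% to 1.34%), also without overlap with the cluster (0% to 0.797%). The other 6 flanks, with means from 0.345% upward, overlapped the range of their cluster, among them both flanks of HoxA and the one above HoxB, at 0.403% (0% to 0.951%). For H3K9ac the same stretch had 3.13% (1.49% to 4.37%) against 0.844% (0.174% to 1.95%), and the ranges overlapped. Below HoxA the H3K9ac means were 0.716% outside and 0.950% inside, so cover was not lower inside every cluster. To set the clusters against gene-dense sequence, the genome was cut into steps of 100 kb. Of 682 steps with at least 5 coding genes, 4 held at least 5 Hox genes. These steps hold parts of the clusters and sequence beside them. Their H3K27ac cover was 0% to 0.0971%, against a median of 6.52% in the gene-dense steps. In the HoxB step (0.0971%) and the HoxD step (0.0719%) all H3K27ac peaks lay outside the cluster. The HoxA step (0%) did not reach the H3K27ac peaks of HoxA. Of the other 678 gene-dense steps, 15.04% were at or below the highest of the 4. For H3K9ac the values were 0.221% to 1.08%, against a median of 5.11%, and 22.1% of the others were at or below. Low cover was therefore shared with other gene-dense stretches, and no test was made of the difference.

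The question of feeding was put to each cluster as its covered percent, with an exact permutation test over the 8 lists of a mark, two-sided, with the labels exchanged within each tetracycline state. There are 36 arrangements, so p cannot go below 0.0556 and no test could pass 0.05, and 16 tests were made. After Benjamini-Hochberg adjustment every p was 1.
H3K27ac over HoxA was 1.53% in Fast 2 without tetracycline and 0% in the other 7 lists. Over HoxB it was 0.245% in Fed 2 without and 0.410% in Fast 1 with tetracycline and 0% elsewhere. Over HoxC it was 0.420% in Fast 1 and 0.248% in Fast 2 without tetracycline, 0.308% in Fed 1 with it and 0% elsewhere. Over HoxD it was 0.797% in Fast 1 without and 0.334% in Fast 1 with tetracycline and 0% elsewhere. Fast minus Fed was 0.381 percentage points for HoxA (exact permutation p = 1), 0.0414 for HoxB (p = 1), 0.0899 for HoxC (p = 0.667) and 0.283 for HoxD (p = 0.5). Zeros stood on both sides in every cluster. The HoxD difference rests on both Fast 1 lists and was 0 without them. All 4 differences were 0 with the upper 0.5 of each list by score.

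H3K9ac over HoxB showed the feeding difference with the smallest p. Without tetracycline it covered 0.260% (Fed 1), 0.647% (Fed 2), 1.95% (Fast 1) and 1.04% (Fast 2), and with it 0.174%, 0.780%, 1.35% and 0.548% in the same order. Without tetracycline both Fast lists were above both Fed lists, and with it the groups overlapped. The means were 1.22% for Fast and 0.465% for Fed, a difference of 0.757 points (exact permutation p = 0.111, adjusted p = 1) that was upward in 3 of 4 same-numbered pairs. Without both Fast 1 lists, an omission chosen after seeing the data, it was 0.331 points (exact p = 0.333). Without all lists numbered 1, a planned omission, it was 0.0828 points. With the upper 0.5 of each list by score it was 0.258 points (exact p = 0.0556, the smallest possible), and taking equally many top peaks from each list turned it to -0.0167.
Over HoxA, H3K9ac covered 0% (Fed 1), 1.67% (Fed 2), 2.63% (Fast 1) and 0% (Fast 2) without tetracycline, and 0.330%, 0.937%, 1.84% and 0.194% with it. The 2 lists of a group lay as far apart as the feeding states, and the difference was 0.431 points (exact p = 0.667). Without both Fast 1 lists it turned to -0.638, with the upper 0.5 by score to -0.351, and with equally many top peaks it was 0.
Over HoxC the values were 0%, 0.785%, 0.919% and 0.369% without tetracycline and 0.399%, 1.05%, 4.13% and 0.746% with it, in the same order. Fast 1 with tetracycline stood far above the rest, with 10 peaks. The difference was 0.984 points (exact p = 0.333), and without both Fast 1 lists it was -0.000216. It was 0.181 with the upper 0.5 by score and 0.119 with equally many top peaks.
Over HoxD they were 0%, 0.392%, 1.67% and 0.505% without tetracycline and 1.03%, 0.602%, 1.43% and 0% with it. The difference was 0.397 points (exact p = 0.5) and -0.253 without both Fast 1 lists, 0.0206 among peaks at least 500 bp wide, and 0 with equally many top peaks. Over all 4 clusters the Fast 1 lists covered 1.80% and 2.12%, above their genome cover of 1.74% and 1.73%, and the other 6 lists covered less of the clusters than of the genome.

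**Figure D5:**
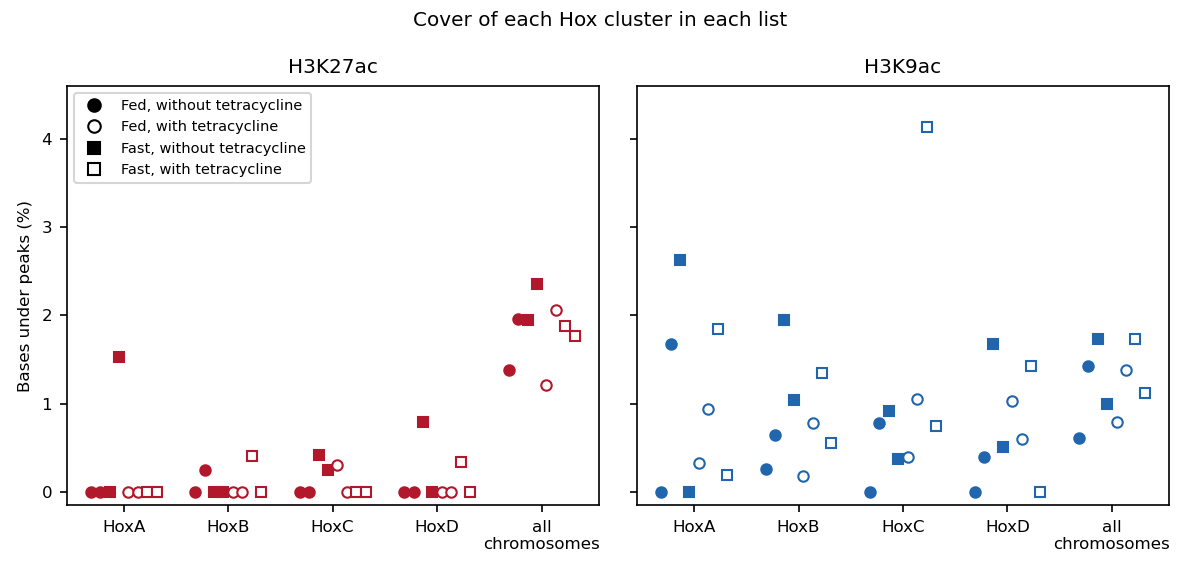
Percent of each Hox cluster under peaks in each of the 16 lists, 1 point per list, by feeding and tetracycline state, for H3K27ac and H3K9ac, beside the cover of all chromosomes. Most H3K27ac points lie at 0%, and the H3K9ac points of Fed and Fast overlap in every cluster, with the highest at 4.13% over HoxC in Fast 1 with tetracycline.

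Gene by gene, no Hox gene had either mark in all 4 Fast and no Fed lists. Of coding genes, 0.0964% did for H3K27ac and 0.0781% for H3K9ac. The reverse, all 4 Fed and no Fast lists, also held no Hox gene, against 0.0138% and 0.0413%. A difference of at least 2 lists was reached for H3K9ac by Hoxb8 towards Fast, 1 of 39 against 5.92% of coding genes. Hoxa9 reached it towards Fed, 1 of 39 against 4.84%. The Hoxa9 difference rests on the 1 kb window, as a peak of Fast 1 without tetracycline lay 1197 bp from the gene. For H3K27ac no Hox gene reached a difference of at least 2 lists in either direction, against 3.44% and 1.91%. No Hox gene had H3K27ac in more than 1 list or H3K9ac in more than 3. So neither 4 lists against none nor a difference of 2 H3K27ac lists could be reached. Only 4 Hox genes had the 2 H3K9ac lists that a difference of 2 needs. The shares therefore reflect sparse marking and cannot show whether Hox genes respond to feeding.

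The tetracycline comparison was made in the same way, with the labels exchanged within each feeding state. H3K9ac over HoxC averaged 1.58% with and 0.518% without tetracycline, a difference of 1.06 points (exact permutation p = 0.278, adjusted p = 1). It was upward in 4 of 4 same-numbered pairs, and within pairs the exact p was 0.125, the smallest that 16 arrangements allow. Much of its size came from the 4.13% of Fast 1 with tetracycline, and without both Fast 1 lists it was 0.354 points (exact p = 0.333). It shrank to 0.0488 points with the upper 0.5 of each list by score and to 0.0322 with equally many top peaks per list. H3K9ac changed by -0.249 points over HoxA (exact p = 0.778), -0.263 over HoxB (p = 0.556) and 0.122 over HoxD (p = 0.833). For H3K27ac the differences were -0.381 (exact permutation p = 1), 0.0414 (p = 1), -0.0899 (p = 0.667) and -0.116 (p = 1) from HoxA to HoxD. As for feeding, p could not go below 0.0556.
No Hox gene was marked in all 4 lists of 1 tetracycline state and none of the other. Of coding genes, 0.00459% were marked by H3K27ac and 0.0459% by H3K9ac only with tetracycline, and 0.0964% and 0.0413% only without it. Hoxa13 had H3K9ac in 2 more lists without tetracycline, 1 of 39 against 3.91% of coding genes. No Hox gene had 2 more H3K9ac lists with it, against 4.79%. For H3K27ac none reached 2 lists in either direction, against 3.03% (without) and 1.42% (with). As for feeding, marking was too sparse for 4 lists against none or for an H3K27ac difference of 2 lists. These zeros therefore cannot show whether Hox genes respond to tetracycline.

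Promoters were compared by sequence too. A peak overlapped 0 of 24 Hox promoters for H3K27ac and 4 of 24 for H3K9ac (Hoxa7, Hoxb1, Hoxb4 and Hoxd8, in 1 list each). Of all 21263 promoters in the table, 55.0% and 59.7% were overlapped in at least 1 list. Hox promoters held a median of 14.5 CpG (4 to 45) and all promoters 13. Among the 7641 promoters with at least 20 CpG, 83.3% had H3K27ac and 87.7% had H3K9ac in at least 1 list, and 54.8% and 31.8% in all 8. Of the 11 Hox promoters with at least 20 CpG, none had either mark in any list. These 11 belong to Hoxa3, Hoxa5, Hoxa6, Hoxa10, Hoxa13, Hoxd1, Hoxd3, Hoxd9, Hoxd10, Hoxd11 and Hoxd13, and so to HoxA and HoxD alone. The table holds 10, 3, 1 and 10 promoters of HoxA, HoxB, HoxC and HoxD.
Short motifs were searched on both strands. CATAAA, a core that CDX proteins bind, was in 5 of 24 Hox promoters and 9.71% of all promoters, and TGATTNAT, a HOX-PBX site, in 2 of 24 and 2.75%. GGGCGG, the GC box, was in 10 of 24 and 46.2%, and TATAAA, the TATA box, in 4 of 24 and 12.6%. CATAAA and TATAAA share their last 5 letters but cannot start at the same base. Of the windows printed above, Hoxb8 and Hoxd4 hold CATAAA and TATAAA, and Hoxa2 holds TGATTNAT.

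The genes that work with or upon the Hox genes were read from lists. Of 9 HOX cofactor genes, whose PBX, MEIS and PKNOX proteins bind DNA together with HOX proteins, 2 had H3K27ac in all 8 lists, Pknox1 among them, and 1 had none (Meis3). For H3K9ac, 2 had it in all 8, Pbx2 among them, and Meis3 again in none. Meis1 had H3K27ac in 1 list and H3K9ac in 2.
Of 8 ParaHox, Cdx and Evx genes, the relatives of Hox genes outside the clusters, Cdx1 and Cdx2, regulators of intestinal identity, had both marks in all 8 lists. Pdx1, the gene of pancreas and duodenum, had H3K27ac in 7 and H3K9ac in 8. Gsx1, Evx1 and Evx2 had neither mark in any list.
Of 18 Polycomb and Trithorax genes, which hold Hox genes silent or active, 10 had H3K27ac in all 8 lists, among them Ezh1, Suz12 and Kmt2a, and 1 had none (Cbx7). For H3K9ac 6 had it in all 8 and none lacked it throughout. Over all coding genes, 33.8% had H3K27ac and 21.2% had H3K9ac in all 8 lists. In none of these 3 lists was a gene marked in all Fast and no Fed lists, or the reverse, for either mark. Of coding genes, 0.0964% and 0.0138% were for H3K27ac, and 0.0781% and 0.0413% for H3K9ac. Finding none in lists this short is therefore near the share over coding genes.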

How the data were processed

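H3K27ac and H3K9ac CUT&Tag peaks were read from the 16 deposited lists, 2 per sample. Per the submitters' processing notes, FastQC, Bowtie and SAMtools were used on build mm10, which has the coordinates of GRCm38. The caller's version, its threshold and any control are not given in the sources used here, peak names carry the tag MACS, and list names say "downsampled" without read totals. The deposited score of each peak is the authors' own, has no stated unit, and was used only to rank peaks within a list. The labels name a mouse IgG beside H3K27ac and a rabbit IgG beside H3K9ac without stating their role.

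Peaks on chromosomes 1 to 19, X and Y were kept. RefSeq gives genes without exons here, so only ends and spans were used, and 110 of 21887 coding genes with positions on unplaced pieces were dropped. A gene was marked with at least 1 base of a peak within 1 kb of an end. Covered percent is the share of a cluster's bases under peaks. Comparisons are exact permutation tests over lists, with Benjamini-Hochberg adjustment over 16 tests, and counts over genes have no test. Numbers 1 and 2 come from the deposited names and do not show shared mice.

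Genes named with every list were, per cluster and mark, those with most lists (ties by score percentile), and those differing by at least 2 lists between feeding or tetracycline states. The members and gene lists were chosen with earlier results of these data known. Scripts were tested on simulated data and used pandas 2.3.3, numpy 2.4.6, matplotlib 3.10.9 and scipy 1.17.1 under Python 3.11.15. Counts cover all genes of a list, and 1 Hox gene and 1 cofactor gene are not reported individually here. Alternatives changed the score or width filter, the window, the cluster's extent, the lists used and the pairing.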

Additional observations from a re-analysis of the deposited data

How the results depend on the processing

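With 36 arrangements or fewer no test could reach a p under 0.05, so what follows are directions and sizes of differences in covered percent (percentage points, Fast minus Fed or with minus without tetracycline) and mean numbers of marked Hox genes per list. Under settings that left no list out, 59 values kept their direction, whatever their size, or for numbers of genes stayed within 1.5 times, 35 became 0 or moved further, and 10 turned direction. With lists left out, these counts were 187, 11 and 22. The 59 include the replicate number as a block in all 16 tests, where the difference stays the same by construction. Both tallies also include the numbers of Hox genes marked in all lists of only 1 feeding state. Those numbers were 0 and mostly stayed 0, so the tallies overstate how stable the differences were. With the upper 0.5 of each list by score, all 8 H3K27ac differences were 0. H3K9ac turned to -0.351 for fasting over HoxA and, for tetracycline, to 0.117 over HoxA, 0.0290 over HoxB and -0.312 over HoxD. With the same number of top peaks per list (32392 for H3K27ac, 17249 for H3K9ac), the H3K27ac differences over HoxA, HoxB and HoxD were 0, and over HoxC -0.0771 for fasting and 0.0771 for tetracycline. With that setting H3K9ac was 0 over HoxA and HoxD for both contrasts and -0.0167 over HoxB for fasting. Among peaks at least 500 bp wide, H3K27ac was 0 over HoxB, HoxC and HoxD and the H3K9ac tetracycline difference over HoxD was -0.0206. Extending the clusters by 10 kb on each side turned H3K27ac over HoxB to -0.104 for fasting and -0.0130 for tetracycline. The cause of these turns was not tested.

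The mean of 0.250 Hox genes with H3K27ac per list became 0 with the upper 0.5 by score or the same number of top peaks, 0.125 with peaks at least 500 bp wide, 0.5 with a window of 2.5 kb and 0.875 over gene bodies and 1 kb around them. The H3K9ac mean of 3.5 became 1.25, 0.625, 1.5, 6.13 and 5.88 in the same order (upper by score, top peaks, width, window, bodies). At start sites only, where 22 genes could be read, the H3K9ac mean was 1.25. The H3K27ac mean there was 0.25, with 2 genes marked and 0.25 in Fed as in Fast lists. The Fed peak (chr15:103033157-103033513, Fed 1 with tetracycline) lay within 1 kb of a start site of Hoxc4 inside its annotated span.

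With lists left out, fasting differences ranged for H3K27ac from 0 to 0.763 (HoxA), -0.122 to 0.205 (HoxB), 0.0127 to 0.167 (HoxC) and 0 to 0.565 (HoxD). For H3K9ac they ranged from -1.21 to 2.07 (HoxA), 0.0828 to 1.43 (HoxB), -0.358 to 2.33 (HoxC) and -0.253 to 1.04 (HoxD). Leaving out all H3K9ac lists numbered 1 gave fasting differences of -1.21, 0.0828, -0.358 and -0.245 from HoxA to HoxD. Leaving out all those numbered 2 gave 2.07, 1.43, 2.33 and 1.04. Tetracycline differences ranged for H3K27ac from -0.763 to 0 (HoxA), -0.122 to 0.205 (HoxB), -0.167 to -0.0127 (HoxC) and -0.315 to 0.0836 (HoxD). For H3K9ac they ranged from -0.906 to 0.408 (HoxA), -0.490 to -0.0362 (HoxB), 0.216 to 1.91 (HoxC) and -0.236 to 0.479 (HoxD). Mean marked Hox genes ranged from 0.143 to 0.286 for H3K27ac and 2.33 to 4 for H3K9ac. Hox genes in all of 1 feeding state's lists and none of the other's were 0 for H3K27ac under each omission, and 0 to 1 for H3K9ac. The 1 was Hoxa9, in both Fed lists numbered 2 and neither Fast list numbered 2, when the lists numbered 1 were left out.

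Leaving out 1 list turned fasting over HoxA for H3K9ac to -0.226 (without Fast 1 without tetracycline) and over HoxB for H3K27ac to -0.0198 (without Fed 1 without tetracycline) and -0.0612 (without Fast 1 with tetracycline). The same 2 lists gave the same values for tetracycline over HoxB. Tetracycline over HoxA for H3K9ac turned to 0.169 (without Fed 2 without tetracycline), 0.408 (without Fast 1 without tetracycline) and 0.163 (without Fast 2 with tetracycline). Over HoxD it turned to -0.170 (without Fast 2 without tetracycline) and -0.236 (without Fast 1 with tetracycline). For H3K27ac over HoxD it turned to 0.0836 (without Fast 1 without tetracycline). Leaving out both Fast 1 lists was a choice made after seeing the data. It gave -0.0612 for both contrasts over HoxB and 0 for both over HoxD for H3K27ac, and for fasting in H3K9ac -0.638 over HoxA, -0.000216 over HoxC and -0.253 over HoxD.

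With the replicate number as a block, which rests on list numbers alone, the differences are the same by construction (0.757 for H3K9ac over HoxB, fasting, exact p = 0.25), and the smallest p possible is 0.125. Depth is unknown, so an absent peak means that none was called at the depth of that list.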
